A study of Drosophila melanogaster with 3 samples.

Results

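Far-intronic binding sites of the Drosophila melanogaster protein Mabi (CG15479, also called mabiki and linked to cell death in early embryos) are described here. They are the peaks whose summit lies inside a protein-coding gene model, outside every coding exon and UTR of a protein-coding transcript, and more than 5000 bp from the nearest protein-coding transcription start site (TSS). Of the peaks that passed the irreproducible discovery rate (IDR) threshold of the authors, 547 met these criteria and 4502 did not, a share of 10.8% (Wilson 95% interval 10.01 to 11.7%). The 4502 comprised 1224 near-intronic peaks (more than 500 and up to 5000 bp from a TSS), 391 distal intergenic peaks outside gene models and more than 5000 bp from a TSS, 2153 peaks within 500 bp of a TSS, and 734 others. The criteria used position and gene models only, and no measured value beyond presence in the IDR list.

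The data came from chromatin immunoprecipitation followed by sequencing (ChIP-seq), in which DNA bound to a protein is recovered with an antibody and counted along the genome. Whole embryos of mixed sex aged 0 to 4 h were used, from 1 transgenic line that stably expresses Mabi with GFP at its C-terminus. The labels describe an anti-GFP antibody, give fragments of 200 to 800 bp, and name 3 biological replicates of 1 group with no second condition. The embryos span several stages, and each value is an average over all their cells.

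Long introns of fly developmental genes often hold enhancers, short stretches of DNA that recruit transcription factors and act on a promoter at a distance. In the early embryo, the maternally supplied factor Zelda opens chromatin at many such elements as the zygotic genome becomes active. GAGA factor, encoded by Trl, binds GA-rich repeats at enhancers, promoters and Polycomb response elements.

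Before the values, the sequences that carry the most overrepresented motifs are shown for 8 of the strongest members that hold them on arms 2L, 3L, 3R and X. Each is 30 bases of the plus strand of genome Release 6 (dm6), taken from the RefSeq copy, with the motif in capitals. In 4 members the capitals mark the Zelda motif CAGGTAG or its reverse complement, and in the other 4 the GAGA repeat GAGAGAG or its reverse complement.
tinc, Zelda, chr3R:17826314-17826343: tctgactcacgCAGGTAGgctgacgtgatc
fz2, Zelda, chr3L:19184156-19184185: gaagtctgcggCAGGTAGagatgccacgat
CG45263, Zelda, chr3R:8467947-8467976: cattagtgcgcCTACCTGaggtcgcaggcg
rau, Zelda, chr2L:5871136-5871165: aataggaatagCAGGTAGctgttgtgtgca
InR, GAGA repeat, chr3R:21605640-21605669: tctctctctctCTCTCTCcccctttacaca
Pits, GAGA repeat, chrX:12574978-12575007: cgagagggggaGAGAGAGagcatgcagcca
MSAmiP, GAGA repeat, chr3R:16848765-16848794: gctgcgctcacCTCTCTCatttctgcttcg
Bicra, GAGA repeat, chr3R:29074238-29074267: aggtaacgcggGAGAGAGtgagatggtcag
The motif lay 31 bp from the summit in tinc, 60 bp in fz2, 71 bp in CG45263 and 40 bp in rau. Among the GAGA repeats, the one in Pits covered the summit itself, and those in InR, MSAmiP and Bicra lay 43, 83 and 22 bp from it. The InR and Pits windows show runs of the repeat, whereas the MSAmiP and Bicra windows hold a short one in mixed sequence.

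The motif shares behind these examples were taken over windows reaching 100 bp to either side of the summits, for 33 motifs searched on both strands. The Zelda motif CAGGTAG was present in 29 of the 547 members, or 5.30% (Wilson 95% interval 3.72 to 7.51%). All 147279 non-overlapping tiles of far-intronic sequence of the same length held it at 0.839%, which made the members' share 6.32 times as high. The GAGA repeat GAGAGAG was found in 70 members, or 12.8% (10.3 to 15.9%), against 2.62% of tiles, a ratio of 4.89. The GATA motif AGATAAG was found in 38 members, or 6.95% (5.10 to 9.39%), against 2.40% of tiles, a ratio of 2.90. Next came the CA repeat CACACAC at 17.9% of members and 7.32% of tiles. The sequence CAAGGTCA, bound by the nuclear receptor Ftz-f1, followed with 5 members. At least 1 of the Zelda, GAGA and GATA motifs occurred in 129 members, or 23.6% (20.2 to 27.3%), against 5.76% of tiles, and 8 members held at least 2. A motif match describes the letters of the window and not occupancy by the factor, and overlaps between motifs were allowed.

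Motifs that were rarer in members than in tiles were also present. The homeodomain motif was found in 6.58% of members against 13.8% of tiles, and the poly-A run in 7.68% against 12.98%. The Kruppel motif was in 1 member, or 0.183% (0.0323 to 1.03%), against 0.498% of tiles, a value inside that interval. GC content also differed between members and tiles: the median was 45.3% at member summits, 41.3% in windows 1000 bp to the lower-coordinate side, and 40.3% in tiles. Windows at least 50% repeat-masked made up 3.11% of members and 14.2% of tiles. The part of base composition or repeats in the motif ratios was not tested. At the windows 1000 bp aside, which share the locality, the Zelda motif was at 0.914%, the GAGA repeat at 4.20% and the GATA motif at 2.56%.

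Occurrences of the same 3 motifs were counted in 100 bp bins around the summits. The central bin held 15 Zelda motifs, and the bins centred 100 bp to either side held 17 and 18. Those 1000 bp away held 2 each, and those 900 bp away 5 and 6. The GAGA repeat had 128 occurrences in the central bin and 134 and 103 in its neighbours, against 32 and 8 at the 2 outermost bins. The GATA motif had 26 in the central bin and 13 and 11 in its neighbours, against 5 in each outermost bin. Its bins at -600 and 500 bp held 14 and 15, so only the central bin stood apart. Summits close together share sequence, and runs of GA are counted at each overlapping match.

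**Figure D1:**
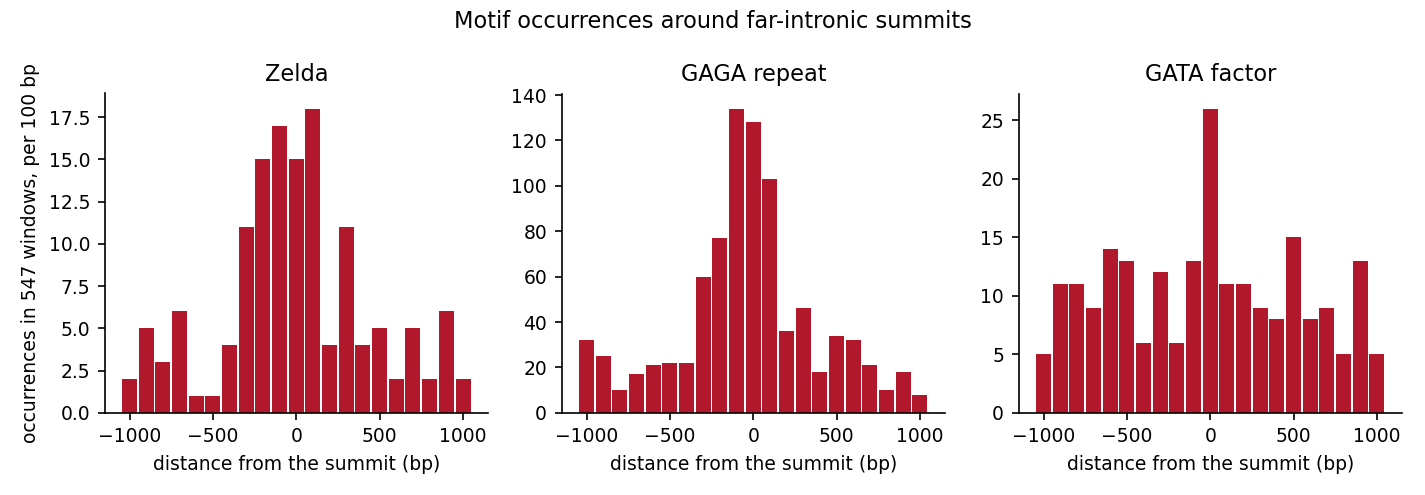
Number of motif occurrences per 100 bp bin (vertical axis, separate scale for each panel) against distance from the summit in bp for the 547 far-intronic peaks. Zelda and GAGA occurrences rise over several bins around the summit (128 GAGA occurrences in the central bin), while the GATA motif has a single high bin of 26.

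Similar shares were found in each replicate's own list, cut to as many of its strongest peaks as the IDR list holds. The Zelda motif was in 5.22%, 4.18% and 6.11% of the far-intronic peaks of replicates 1, 2 and 3, a mean of 5.17 ± 0.965% (SD, n = 3). The GAGA repeat was in 10.8%, 12.7% and 13.7%, a mean of 12.4 ± 1.48%, and the GATA motif in 6.83%, 5.64% and 6.48%, a mean of 6.32 ± 0.616%. Every one of these 9 values lay above its share in tiles.

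Against near-intronic peaks, 0 of 33 motifs, or 0.0% of those tested, passed an adjusted p of 0.05 in two-sided Fisher's exact tests. Benjamini-Hochberg adjustment was made over the 33. The count at an unadjusted p under 0.05 was also 0. The Zelda motif was in 5.30% of far and 7.43% of near intronic peaks (Fisher's exact test, adjusted p = 0.525). The GAGA repeat was in 12.8% of far and 11.5% of near ones (Fisher's exact test, adjusted p = 0.681). For the GATA motif the shares were 6.95% of far and 9.23% of near peaks (Fisher's exact test, adjusted p = 0.525). A p that misses the threshold does not show that the shares are equal.

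Against distal intergenic peaks, 2 of 33 motifs, or 6.06% of those tested, passed the same test. The GAGA repeat was more frequent, at 12.8% of far-intronic and 6.65% of distal intergenic peaks (Fisher's exact test, adjusted p = 0.0354). The Tramtrack motif, named for a zinc-finger repressor, was less frequent, at 5.85% of far-intronic and 11.8% of distal intergenic peaks (Fisher's exact test, adjusted p = 0.0354). Tramtrack was in 6.38% of far-intronic tiles, 4.17% of near-intronic peaks and 5.03% of all IDR peaks, so the distal intergenic share was the highest of these. The difference for the GAGA repeat was 6.15 percentage points. With 1 summit per interval both differences had the same direction and neither passed Fisher's exact test, at adjusted p = 0.118 for the GAGA repeat and 0.0934 for Tramtrack. Peaks in 1 interval or host gene share their source, and the Fisher tests take them as independent.

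**Figure D2:**
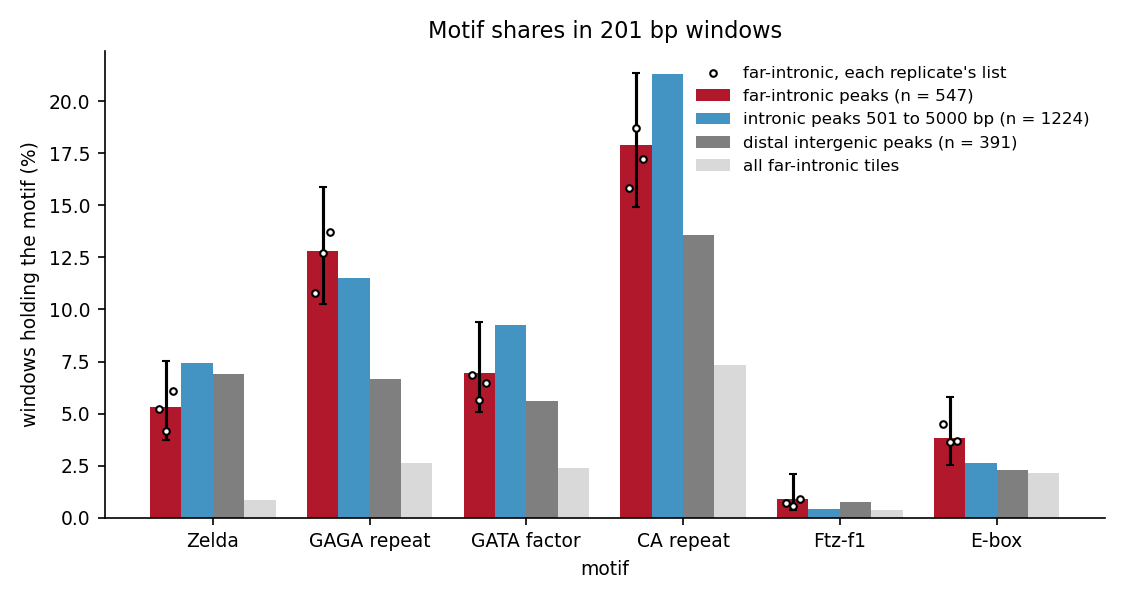
Percentage of windows reaching 100 bp to either side that hold each of the 6 motifs with the highest ratio of member share to tile share, for far-intronic peaks, near-intronic peaks, distal intergenic peaks and far-intronic tiles. Bars on the far-intronic values are Wilson 95% intervals, open circles are the far-intronic peaks of the 3 replicate lists, and the E-box is the one with the letters CACGTG. The 3 peak classes stand above the tiles for Zelda, GAGA, GATA and CA repeats, with 5.30%, 12.8%, 6.95% and 17.9% in far-intronic peaks.

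The number of far-intronic peaks was close between replicates. Among as many of the strongest peaks of each replicate list as the IDR list holds, 556, 550 and 540 met the position criteria in replicates 1, 2 and 3, a mean share of 10.9 ± 0.16% (SD, n = 3). In the complete lists of 30000 peaks the numbers were 3985, 4342 and 4138, a mean share of 13.9 ± 0.597%. In the pooled list the share was larger among weaker peaks. Every IDR peak had the same position as a pooled peak. The strongest pooled peaks, cut to as many as the IDR list holds, gave the same counts as that list. They held 547 far-intronic peaks and 2153 within 500 bp of a TSS. Their shares of 10.8% and 42.6% therefore repeat those of the IDR list and are no second measurement. Pooled ranks 20001 to 25000 held 808 far-intronic peaks of 5000, or 16.2% (15.2 to 17.2%). In these ranks, peaks within 500 bp of a TSS made up 19.8%.

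Each member was counted as matched in a replicate where it overlapped, by at least 50% of either peak, one of the same number of strongest peaks of that replicate. Replicates 1, 2 and 3 matched 454, 493 and 470 of the 547 members. All 3 replicates matched 383 members, or 70.0% (66.0 to 73.7%), against a background of 71.2% over all IDR peaks. A further 107 members were matched in 2 replicates, 54 in a single replicate, and 3 had no match. Near-intronic peaks were matched in all 3 replicates in 908 of 1224 cases, or 74.2%. Far minus near was −4.16 percentage points (Newcombe 95% interval −8.79 to 0.306; two-sided Fisher's exact test, adjusted p = 0.122 over 2 comparisons). Distal intergenic peaks were matched in 292 of 391 cases, or 74.7%, and far-intronic minus distal intergenic was −4.66 points (−10.3 to 1.18; Fisher's exact test, adjusted p = 0.122). Neither difference passed the threshold. The IDR list came from these same replicates, and the classes differed in signal. Among the stronger 50% of IDR peaks were 45.7% of far-intronic, 53.9% of near-intronic and 49.9% of distal intergenic peaks. The part of signal in the matching differences was not tested. Without replicate 3, far minus near was −5.36 points and passed, at an adjusted p of 0.022, and with an overlap of 50% of both peaks it was 1.78 points and did not pass. Against the complete replicate lists, 539 members, or 98.5%, were matched in all 3.

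Signal, the authors' per-peak value whose scale is not stated, was compared only within a list, as ranks or as values. It ran from 291 to 3430 among the members, with a median of 443, against 497 in near introns, 470 in distal intergenic sequence and 473 over all IDR peaks. All of the 183 strongest members were matched in all 3 replicates, against 145 of the next 182 (79.7%) and 55 of the 182 weakest (30.2%, interval 24.0 to 37.2%). The IDR list was derived from these same replicates, so a rise of matching with signal follows largely from construction. It is no independent measure of agreement. Within the same number of strongest peaks of each replicate, the median rank percentile of far-intronic peaks (100 is the strongest) was 51.0, 45.6 and 47.2 in replicates 1, 2 and 3. For near-intronic peaks it was 52.1, 52.3 and 52.1. Far minus near was −1.07, −6.66 and −4.91, a mean of −4.22 ± 2.86 (SD, n = 3), lower in 3 of 3 replicates (exact two-sided sign-flip permutation test, p = 0.25, the smallest that 3 replicates allow). Against distal intergenic peaks the difference averaged 0.782 ± 3.92 (n = 3) and changed sign between replicates. Where a member overlapped a replicate peak, the summits lay a median of 20, 17 and 20.5 bp apart in replicates 1, 2 and 3.

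**Figure D3:**
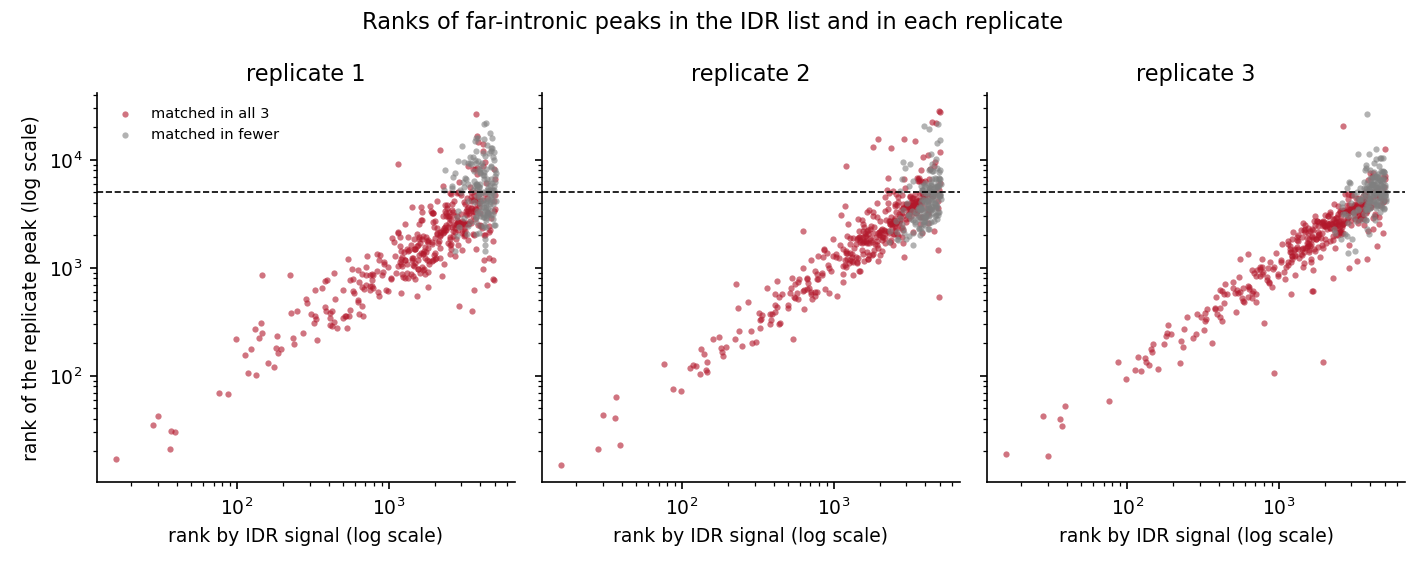
Rank of each far-intronic peak by IDR signal (horizontal, log scale, 1 is strongest) against the rank of the overlapping replicate peak with the nearest summit (vertical, log scale), one panel per replicate. The dashed line is the last rank counted for a match, and a member can be matched by another overlapping peak when its nearest-summit peak lies above it. The 164 members matched in fewer than 3 replicates (grey) include none of the 183 strongest members.

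The 10 strongest members were matched in all 3 replicates, from which the IDR list was itself derived. The strongest lay in the overlapping gene models of CG6191 and CG45088, with ranks of 17, 15 and 19 in replicates 1, 2 and 3. The member in tara, a gene with genetic ties to chromatin and cell cycle regulation, ranked 35, 21 and 42. In InR, the insulin-like receptor, the strongest member ranked 42, 43 and 18 and lay in the first intron, 13339 bp from the nearest TSS. The tinc member shown above ranked 21, 41 and 40. These 4 members ranked among the 50 strongest peaks in every replicate.

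Bsg encodes the immunoglobulin-family membrane protein Basigin, and its member ranked 31, 63 and 34. Of the 3 members in cv-2, an extracellular protein that binds BMP ligands, the strongest ranked 30, 23 and 52 and the next 156, 119 and 114, with summits 206 bp apart in 1 interval. The member in robo2, a receptor for the guidance cue Slit, ranked 70, 128 and 58. The member in skd, a subunit of the Mediator kinase module, ranked 68, 76 and 133. In simj, which encodes a subunit of the NuRD chromatin remodelling complex, replicate 1 stood lower, at rank 220 against 73 and 94 in replicates 2 and 3.

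The peaks closest to the distance limit varied in signal on both sides of it. Just inside were members at 5006 bp in cno (signal 1790), at 5052 bp in CG32264 (404) and at 5062 bp in neur (443). Just outside were peaks at 4978 bp in bun (296), at 4983 bp in ush (1748) and at 5000 bp in SNF4Agamma (690).

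Far-intronic sequence covered 31.1 Mb, 22.6% of the chromosome arms, and held 17.6 IDR summits per Mb (exact Poisson 95% interval 16.1 to 19.1). The density fell with distance from a TSS within the members and continued a decline that began near the promoter. It was 28.4 per Mb (25.3 to 31.8) at 5000 to 10000 bp, 18.8 (16.1 to 21.9) at 10000 to 20000 bp, 10.5 (8.02 to 13.5) at 20000 to 50000 bp and 2.14 (1.11 to 3.74) beyond 50000 bp. Introns 500 to 1000 bp from a TSS had 83.3 per Mb (74.6 to 92.8). The replicates gave 29.7, 28.6 and 28.2 per Mb at 5000 to 10000 bp and 0.892, 2.32 and 1.60 beyond 50000 bp, so the order held in each of them. Repeat-masked bases made up 21.6% of the sequence at 5000 to 10000 bp and 38.0% beyond 50000 bp. With masked bases left out, an alternative chosen after the data were seen, the densities were 31.1 and 3.16 per Mb, and the density over all far-intronic sequence was 19.7. A few very long genes hold much of the distant sequence. Myo81F had 1955 kb of far-intronic sequence with 3 members and Pzl 699 kb with 1, while the range beyond 50000 bp covers 5.61 Mb. Their part in the fall, and in the density over all far-intronic sequence, was not tested. The intervals cover counting error only, and the replicate values show the spread between samples.

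**Figure D4:**
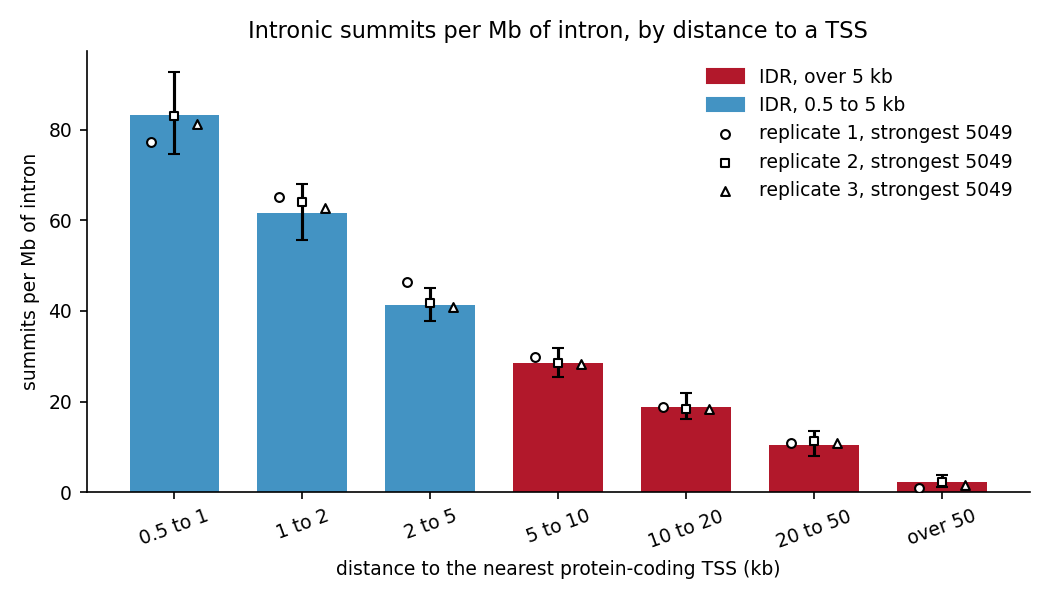
IDR summits per Mb of intron (bars, exact Poisson 95% intervals) against distance to the nearest protein-coding TSS in kb, with the members beyond 5 kb in red and nearer intronic peaks in blue. Open symbols are the strongest peaks of replicates 1, 2 and 3, as many as in the IDR list. The density fell at each step, to 2.14 per Mb beyond 50 kb.

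Among members, signal was similar at distances up to 50000 bp. Median signal was 442 in the 306 members at 5000 to 10000 bp, 458 in the 168 at 10000 to 20000 bp, 442 in the 61 at 20000 to 50000 bp and 357 in the 12 beyond 50000 bp. The shares matched in all 3 replicates were 71.6%, 68.5%, 70.5% and 50% over the same ranges, and their Wilson intervals overlapped. The GAGA repeat was in 10.1% (7.23 to 14.02%) of members at 5000 to 10000 bp and in 18.5% (13.3 to 25%) at 10000 to 20000 bp. It was in 11.5% (5.67 to 21.8%) at 20000 to 50000 bp and in 1 of the 12 members farther away, and all 4 intervals overlapped. By strength it was in 16.4% of the 183 strongest members, 13.2% of the next 182 and 8.79% of the 182 weakest, with intervals that overlapped. Overlap of intervals does not show equal shares, and differences by distance or strength were not tested. The median distance to a TSS was 9002 bp (quartiles 6687 and 14441 bp). The 3 farthest summits all lay in Myo81F, an unusually long myosin gene at the base of arm 3R, at 1346793, 877889 and 701830 bp. They were weak to middling, at signals of 294, 475 and 365, and were matched in 1, 3 and 2 replicates.

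Across chromosome arms, densities of far-intronic summits were similar on the 5 large arms. They were 18.9 per Mb on 2L, 16.3 on 2R, 17.6 on 3L, 18.6 on 3R and 19.7 on X, with overlapping Poisson intervals. Chromosome 4 had 2 members, or 6.95 per Mb, with an interval (0.842 to 25.1) that takes in the values of the large arms. Chromosome Y had none in 0.925 Mb, for which the exact Poisson upper bound is 3.99 per Mb. The embryos were of mixed sex and read depth is unknown here, so this count was not corrected for Y copy number or for how well reads map there.

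Position within the gene was uneven. The first intron, counted from the 5′ end of the longest transcript that spans the summit, held 214 members, or 39.1% (35.1 to 43.3%), against 20.2% of far-intronic tiles (every 10th was assigned). The second intron held 161. The introns had a median length of 19505 bp for members and 26746 bp for tiles. Tiles were not matched to members for intron length or distance from a TSS, whose part in the first-intron contrast was not tested. The nearest TSS belonged to a gene whose model holds the summit for 414 members, or 75.7%, so for the rest it was another gene's. One gene model held the summit for 522 members, 24 lay in 2 models and 1 in 3, and 18 lay in an exon of a gene without a protein product.

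The members sat in 268 host genes of the 1860 protein-coding genes that have any far-intronic sequence, a background of 14.4%. They occupied 492 intervals, and 345 members, or 63.1%, had another member within 5000 bp. Of the hosts, 132 held 1 member, 69 held 2, 24 held 3 and 43 held at least 4, and these 43 held 214 of the members. An IDR summit within 500 bp of a TSS was present for 147 hosts, or 54.9%, against 357 of the 1592 other genes, or 22.4%. Split by the length of far-intronic sequence, these shares were 55.7% and 24.2% in genes with 5000 to 20000 bp of it, and 50% and 16.3% above 50000 bp. No test was made of these shares, since hosts are the genes that hold a peak.

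The 10 hosts with the most members held 6 to 12 each. The most members, 12, lay in the first intron of jing, a zinc-finger cofactor of Polycomb repressive complex 2. The strongest of these, 27604 bp from the nearest TSS, had a signal of 1739 and ranks of 131, 219 and 115 in replicates 1, 2 and 3. Of the 12, 10 were matched in all 3 replicates. The Hox gene Antp, which specifies thoracic identity, held 10, of which 9 also lay in the overlapping model CG46458. Its strongest member had a signal of 1430, ranked 469 and 371 in replicates 1 and 3 and stood higher in replicate 2.

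Ubx, the Hox gene of the third thoracic and first abdominal segments, held 10 members, 6 of them in its second intron and 4 in the third. Its strongest, at a signal of 1027, ranked 500, 1007 and 1339. The model of MSAmiP (3R, 16831115 to 16896293) lies between abd-A and Abd-B in the bithorax complex and held 8 members. Its strongest, at 13441 bp from a TSS, ranked 273, 105 and 146, and its next strongest carries the GAGA repeat shown above. With the 4 members in abd-A, 22 members lay in Ubx, abd-A and MSAmiP, and none in Abd-B.

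Of the other leading hosts, 3 had 7 members each, and 9 genes had 6, of which InR and fz2 are named for the highest signal. The homeodomain protein hth, which partners Extradenticle and Hox proteins, held 7, all matched in all 3 replicates, and the strongest ranked 619, 277 and 319. CG9380 held 7, of which 3 were matched in all 3 replicates and 1 of which had a signal above 1000. The gene tna, linked genetically to the trithorax group, held 7 in a first intron of 34295 bp. InR held 6, and after its strongest came one with ranks of 182, 182 and 233 and one with ranks of 234, 166 and 249. The Wnt receptor gene fz2 held 6, all matched in all 3 replicates.

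**Figure D5:**
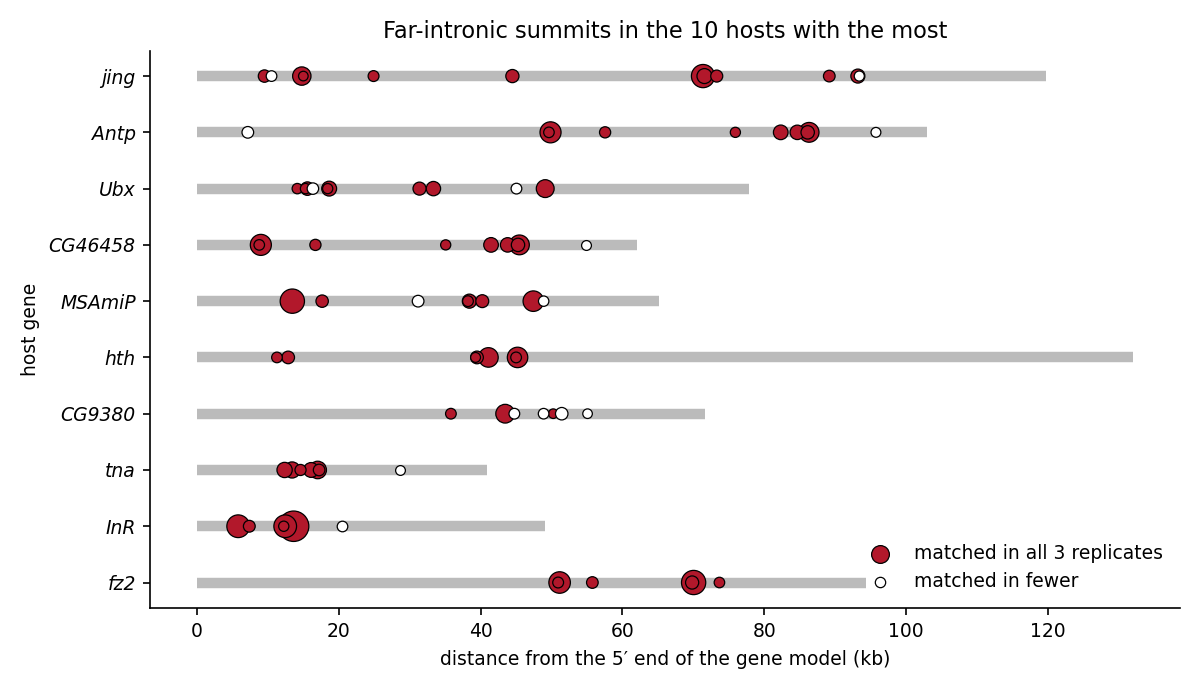
Position of each far-intronic summit as distance in kb from the 5′ end of the host's gene model, for the 10 hosts with the most members (grey bars span the model). Circle area follows IDR signal, filled circles were matched in all 3 replicates and open circles in fewer. The most, 12, lie in jing, and hth and fz2 have filled circles only.

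Hosts made up a larger share of the patterning lists than the 14.4% over all eligible genes. No test was made, because the lists were written with earlier results known and their genes differ in intron length, whose median over all 1860 genes was 6.22 kb. The share of hosts differed with that length: 4.00% of genes with up to 5000 bp of far-intronic sequence, 18.5% at 5000 to 20000 bp, 25.2% at 20000 to 50000 bp and 37.7% above 50000 bp. Among Hox genes and cofactors, 6 of the 10 genes with far-intronic sequence were hosts, with 33 members and 103 per Mb, against 17.6 over all genes. Their median far-intronic length was 14.8 kb. Besides Antp, Ubx, hth and abd-A, pb and lab held 1 each, while Dfd, Scr, Abd-B and tsh held none. Of gap and terminal genes, 3 of 4 were hosts (cad, oc and knrl, with 1 member each, or 115 per Mb), and of pair-rule genes 1 of 2, the zinc-finger gene opa with 2.

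Signalling lists also held hosts. In the EGFR and ETS list 6 of 8 were hosts, with 74.99 members per Mb. It included the ETS factor pnt, the feedback inhibitors sty and aos, and the ligand vn, with 2 members each, and aop with 1. Of dorsoventral and Dpp genes 4 of 9 were hosts (78.0 per Mb), led by the GATA cofactor ush with 6, then shn with 2 and sog and Dad with 1. Segment polarity, Wnt and Hedgehog genes had 6 of 16 (51.3 per Mb), with fz2 at 6, the Hedgehog receptor ptc at 4 and H15 at 2. Of Notch pathway genes 4 of 8 were hosts (45.1 per Mb), with 4 each in the receptor N and the kinase nmo. Ecdysone and juvenile hormone response genes had 8 of 15 (42.1 per Mb), with 6 in the nuclear receptor Eip75B, 4 in EcR and 2 in Hr4. Polycomb and trithorax genes had 5 of 12 (123 per Mb), and 12 of their 19 members were in jing. The cell death list had 1 of 2, hid, a Reaper-family gene that triggers apoptosis, with 2 members. Among the stronger 50% of IDR peaks, 8.50% of eligible genes were hosts. With these peaks the share was 25% of the 4 gap and terminal genes, 26.7% of ecdysone genes and 40% of Hox genes. It was 18.8% of segment polarity genes and 25% of Polycomb and trithorax genes. At more than 10000 bp from a TSS, 13.96% of eligible genes were hosts. There the share was 40% of the EGFR and ETS list, 30.8% of the ecdysone list and 28.6% of the Notch list. It was 100% of the pair-rule and cell death lists, which have at most 2 eligible genes each.

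Shares in the neural, axon guidance, ion channel, RNA-binding and muscle lists ran from 12.9 to 26.5%. They were closer to the background of 14.4% than in the lists above, and densities were lower. That background covers genes of all lengths. Median far-intronic length was 30.8 kb in the axon guidance, 29.8 kb in the ion channel and 65.1 kb in the RNA-binding list. It was 14.7 kb in the neural and 15.6 kb in the muscle list. Over all genes, hosts made up 18.5% at 5000 to 20000 bp, 25.2% at 20000 to 50000 bp and 37.7% above 50000 bp. Shares at equal length were not compared. Neural and zinc-finger factors had 7 hosts of 27 (17.1 per Mb), and axon guidance and adhesion genes 9 of 34 (11.4 per Mb) on longer introns. Ion channel and synapse genes had 4 of 31 (6.46 per Mb), RNA-binding regulators 3 of 13 (6.92 per Mb) and muscle genes 2 of 13 (25.9 per Mb). The first of these lists includes bab2 and zfh2 at 2 members each, the second robo2 and Ten-m at 4 each. The gene bru3, with 4 members, stands in both the ion channel and the RNA-binding list. No chemoreceptor gene of 2 and no cuticle protein gene of 4 was a host, and no ribosomal protein gene had far-intronic sequence.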

How the data were processed

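The deposited peak lists of 3 replicates (30000 peaks each), 1 pool and 1 IDR set (5049 peaks) were analysed on dm6. Per the deposited text files, each replicate's peaks came from its own alignment and 1 control shared by all 3, the pooled list from the 3 alignments with that control, and the IDR list from these lists. Peak caller, aligner: not given in the sources used here. In the authors' lists each peak has a signal value of unstated scale and a −log10 q value deposited by the authors. Signal was compared within a list only, as ranks or as values, and the q value was not used. Read depth is unknown here, and alignments, control and signal tracks were not used here. Agreement between replicates can be shared with the common control, which was not tested.

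Gene models were from Ensembl release 115 and sequence from RefSeq Release 6. They need not be the authors' copies. Windows were 201 bp, near introns 501 to 5000 bp from a TSS, and replicate lists were cut to their strongest 5049 peaks. Fisher's exact tests, Wilson, Newcombe and exact Poisson intervals were computed with Python 3.11.15 and scipy 1.17.1, adjusted by Benjamini-Hochberg at 0.05 over 33 motifs or 2 comparisons. The motif test, peak classes and overlaps were tested on simulated data. The motifs, 19 gene lists, members and tests were chosen with earlier results of these data known, so the lists got no test. The result of 1 list is not reported here. The 6 list symbols without a matching gene name were not analysed here. Named genes are hosts of the 10 strongest members, the 10 hosts with the most members (ties by highest signal), the 3 farthest summits, those next to 5000 bp, and up to 3 per list. Further list genes were named after their values were seen. Printed sequences are 8 of those of the 12 strongest members outside arm 2R holding 1 of the 3 motifs with the highest ratio to tiles, on the motif nearest the summit. Alternatives were leaving out each replicate, other distances, overlaps, windows and peak subsets.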

Additional observations from a re-analysis of the deposited data

How the results depend on the processing

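Read depth is unknown here, and 3 replicates cannot give an exact permutation p under 0.25. No paired analysis was possible because there was 1 group, so replicate numbers pair no samples between groups; rank differences between peak classes were taken within each replicate. Counts of members changed by construction with the criteria: 1046 at more than 2000 bp from a TSS, 241 at more than 10000 bp and 250 among the stronger 50% of IDR peaks, while 1 summit per interval gave 492, leaving out exons of genes without a protein product 529, start sites of all genes 453, and leaving out 1 replicate 412 to 430. The difference in peaks matched in all 3 replicates, far minus near introns, turned positive among the stronger 50% (0.715 percentage points), with an overlap of 50% of both peaks (1.784) and against all 30000 replicate peaks (0.2532), none past the threshold. It ran from −5.36 to −2.925 with 1 replicate left out and passed without replicate 3 only. Against distal intergenic peaks it turned to 4.345 with an overlap of 50% of both peaks and ran from −5.389 to −0.929 with 1 replicate left out. The cause was not tested. The rank difference ran from −5.788 to −2.991 with 1 replicate left out. Motifs past the threshold against near introns numbered 1, the CA repeat, at more than 2000 bp, where near introns are up to 2000 bp from a TSS. There the far minus near differences turned to 1.897 points for Zelda, −2.014 for the GAGA repeat and 0.1904 for GATA, none past the threshold. Against distal intergenic peaks the number was 5 at more than 2000 bp, among them the GAGA repeat and Tramtrack. Among the stronger 50% the number was 1, the Twist E-box CATATG, and neither the GAGA repeat nor Tramtrack passed. It was 0 at more than 10000 bp, with 1 summit per interval, with the strongest peak of each host gene and with windows of 50 bp to either side. It was 0 to 1 with 1 replicate left out, settings that mostly test fewer peaks, and 2 with 200 bp to either side. In each of these settings the GAGA repeat was more frequent in far introns and Tramtrack less so. Host genes made up 11.61% of eligible genes at more than 2000 bp and 8.495% with the stronger 50%.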

Other observations

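The gene zld, which encodes Zelda, and the members in its second intron were chosen after their values were seen. The intron of 8728 bp held 5 far-intronic summits, all matched in all 3 replicates, and the strongest had a signal of 1808 and ranks of 310, 113 and 176 in replicates 1, 2 and 3. None of the 5 windows held the Zelda motif CAGGTAG. The far-intronic sequence of zld was 6.11 kb.

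The 4 members in the receptor gene N, also taken from the list after their values were seen, fell into 2 pairs of summits about 200 bp apart, and the strongest ranked 178, 124 and 112. Both members of hid lay in its first intron, 203 bp apart, and the stronger ranked 582, 783 and 486. The pooled list of 30000 peaks held 4207 far-intronic summits in all.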
